A study of Mus musculus with 12 samples.

Results

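DNA replication and mitosis genes were followed in bulk RNA-seq of whole mouse liver. The set has 49 members, chosen by name from the 25676 genes of the deposited table, and all 49 were present: 21 genes of S phase, when DNA is copied, and 28 genes of G2 and mitosis (G2/M), when the copied chromosomes are divided. The study compared livers of mice in which the transcriptional co-activator YAP1 was removed with Foxa3-Cre (KO) with livers of wild-type mice (WT). Foxa3-Cre places the recombinase under control of Foxa3, a gene active in the endoderm that gives rise to the liver, so cells of other origins are not its target. All mice were C57BL/6, healthy in the case of WT, and 3 to 4 months old. There were 4 groups of 3 mice: WT males, WT females, KO males and KO females. The titles give each mouse its own animal number. No allele beyond "WT" is given for the controls, so whether they carried floxed Yap1 or Cre is not known here.

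A dividing cell runs these genes in order. MCM helicase rings are loaded on DNA with the help of CDC6 and CDT1 in G1, are activated by factors such as CDC45, the GINS complex and MCM10 at the start of S phase, and are followed by polymerases held on DNA by the PCNA clamp. Cyclin B with CDK1 then drives entry into mitosis, Aurora and Polo kinases and kinesins build the spindle, and the anaphase-promoting complex, activated by CDC20, ends mitosis by marking cyclin B and other proteins for destruction. E2F factors are known for driving S-phase genes, and a complex of MuvB with B-MYB or FOXM1 for driving G2/M genes through a promoter element called the CHR. Most hepatocytes of the adult liver are not dividing.

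The promoters of the members were examined first, since the 2 classes are known for different elements. RefSeq sequences on GRCm38.p6, from 250 bases before to 50 bases after a start, were matched for 40 of the 49 members: 19 promoters of 17 S-phase genes and 24 promoters of 23 G2/M genes. Searches on both strands used TTTGAA for the CHR, CCAAT for the CCAAT box, and TTTCCCGC, TTTCGCGC, TTTGCCGC and TTTGGCGC for E2F. These motifs can overlap each other on opposite strands. TTTGAA was in 19 of the 24 G2/M promoters (79.2%) and in 3 of the 19 S-phase promoters (15.8%), against 17.9% of the 32851 promoters of the table. CCAAT together with TTTGAA was in 18 of the 24 G2/M promoters, 15.8% of the S-phase promoters and 6.95% of all promoters. An E2F motif was in 7 S-phase promoters (36.8%), in 2 G2/M promoters (8.33%) and in 2.26% of all. CCAAT, with or without TTTGAA, was frequent in both classes, in 87.5% of G2/M and 73.7% of S-phase promoters, against 37.4% of all. A match describes the letters only and shows neither a bound site nor a cause.

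The sequences below end at the base before the RefSeq start and are written in the direction of the gene. Capitals mark every match to the motifs above on either strand (ATTGG and TTCAAA are the reverse strand of CCAAT and TTTGAA). Cdc20, Ube2c and Cdk1 show the arrangement of the G2/M class, Mcm6 and Cdc6 show E2F motifs, and Mcm10 is shown because its transcript went the other way.
Cdc20 (chr4:118437344-118437463, minus strand): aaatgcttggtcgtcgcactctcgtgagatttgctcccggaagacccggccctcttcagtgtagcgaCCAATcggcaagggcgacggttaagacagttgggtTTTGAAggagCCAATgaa
Ube2c (chr2:164769809-164769928, plus strand): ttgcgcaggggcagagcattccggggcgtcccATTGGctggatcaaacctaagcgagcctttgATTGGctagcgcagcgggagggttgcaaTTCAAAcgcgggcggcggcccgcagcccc
Cdk1 (chr10:69352913-69353052, minus strand): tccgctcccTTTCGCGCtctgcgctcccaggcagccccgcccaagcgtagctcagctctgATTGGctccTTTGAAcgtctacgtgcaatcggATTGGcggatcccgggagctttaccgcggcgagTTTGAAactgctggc
Mcm6 (chr1:128359706-128359825, minus strand): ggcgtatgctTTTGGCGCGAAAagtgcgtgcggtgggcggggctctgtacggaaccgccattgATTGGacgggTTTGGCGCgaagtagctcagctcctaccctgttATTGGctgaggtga
Cdc6 (chr11:98908006-98908150, plus strand): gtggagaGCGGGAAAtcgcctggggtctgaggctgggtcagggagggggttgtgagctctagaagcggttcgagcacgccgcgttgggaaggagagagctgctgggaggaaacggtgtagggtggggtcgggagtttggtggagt
Mcm10 (chr2:5012792-5012911, minus strand): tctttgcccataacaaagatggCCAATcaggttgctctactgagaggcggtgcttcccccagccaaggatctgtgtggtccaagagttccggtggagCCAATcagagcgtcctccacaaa
In Cdc20 and Cdk1 a TTTGAA lies within the last 20 bases before the start, with CCAAT on one strand or the other close by. Mcm6 has 3 E2F matches, of which a pair overlap on opposite strands. The Mcm10 window had CCAAT matches but neither TTTGAA nor an E2F match.

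Levels are given as TPM, the deposited unit, which counts transcripts per fixed total after correction for transcript length, so that genes can be compared. Yap1 was at 23.0 to 34.9 TPM in WT and 0.99 to 3.11 TPM in KO livers, with no overlap, and Y-linked genes matched the sex of every label. The values of low genes were multiples of a single read, which gave 15261076 to 22046330 reads per library over 16560 genes. Values were higher in KO at the median of the 12278 genes tested (those reaching a mean of 0.5 TPM over the 12 livers), with a difference of 0.35 on the log2(TPM + 1) scale. Counts are therefore also given after TPM was rescaled by median-of-ratios size factors, which brought that median to -0.04. In whole tissue, fewer cells of a type and less RNA per cell cannot be told apart.

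The G2/M genes were higher in KO livers under both scalings, and the S-phase genes by less and with some only on deposited TPM. The ratio of the KO mean to the WT mean TPM had a median of 5.82 over the 28 G2/M members, from 2.90 for Birc5 to 11.1 for Ttk. Over the 21 S-phase members it had a median of 1.78, from 0.136 for Mcm10 to 6.68 for Uhrf1, and over all tested genes it was 1.33. The classes began from different levels: 17 S-phase genes had a WT mean of 1 TPM or more, against 1 G2/M gene, Aurka. In the heat map of the members the G2/M block is dark in every WT liver and lighter in every KO liver.

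**Figure D1:**
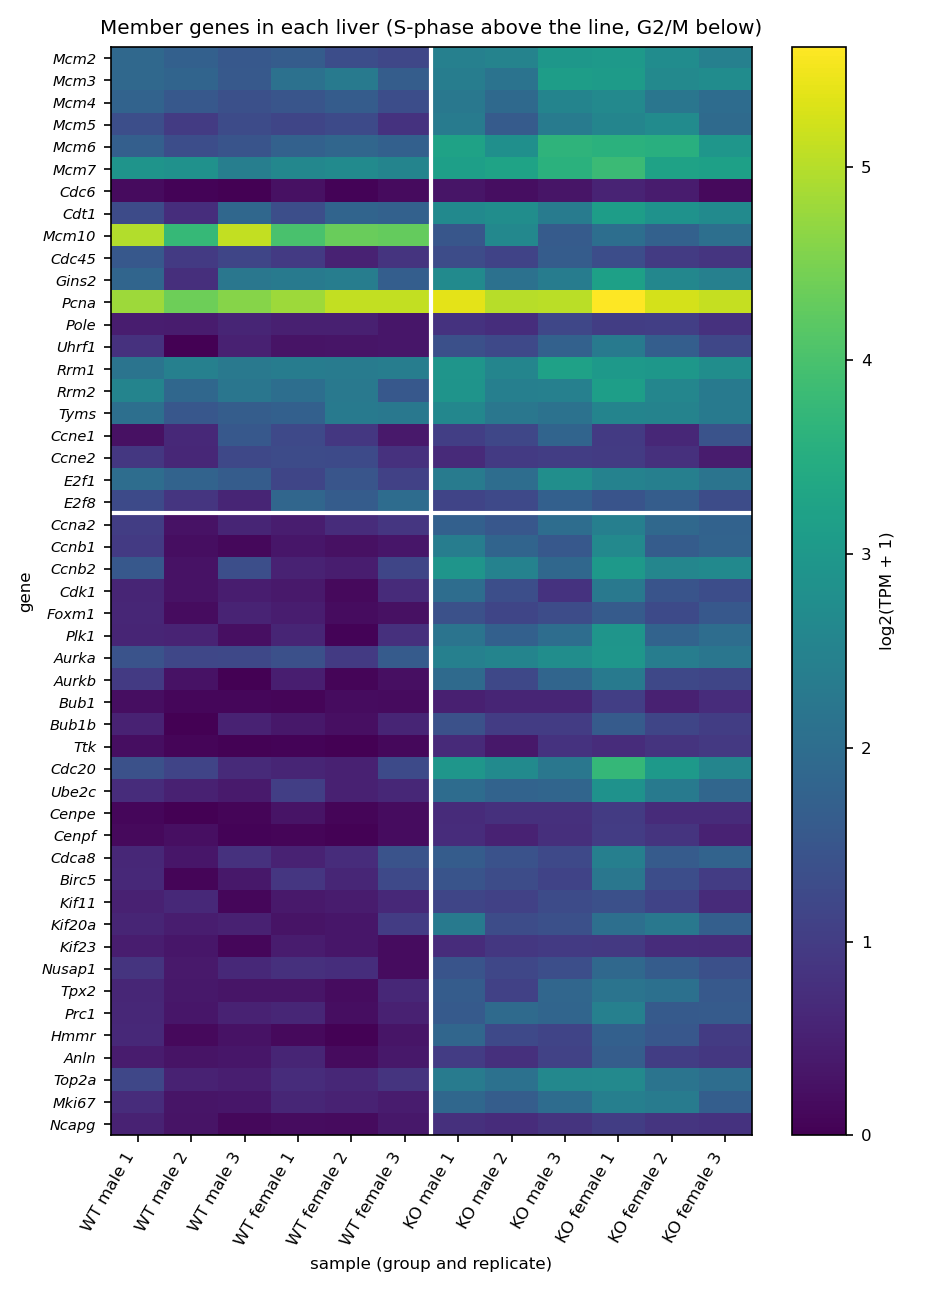
Heat map of log2(TPM + 1) for the 49 members (vertical axis) in each of the 12 livers (horizontal axis); the white lines part the 21 S-phase genes from the 28 G2/M genes and the 6 WT from the 6 KO livers. Mcm10 is bright in WT and darker in KO, and Pcna is bright in all 12.

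The test was limma with a mean-dependent spread on log2(TPM + 1), with sex as a term and Benjamini-Hochberg adjustment over all 12278 genes at a threshold of 0.05. It ran on 24 G2/M members, since Bub1, Ttk, Cenpe and Cenpf were under the filter, and on 20 S-phase members, since Cdc6 was. The filter used the mean over WT and KO livers together. Genes low in WT were thus tested only where KO values raised that mean, which favours rises among them. The WT mean was under 0.5 TPM for 19 of the 28 G2/M members and 3 of the 21 S-phase members, untested ones included. With no filter 28 of 28 G2/M members rose, against 38.0% of genes. All 24 tested G2/M members rose, where 50.1% of all tested genes rose. Of the S-phase members 15 rose and 1, Mcm10, fell, where 4.82% of all tested genes fell. The median log2 difference was 1.24 for the tested G2/M members and 0.64 for the S-phase members. After rescaling, 24 G2/M members and 9 S-phase members were higher, against 20.9% of all genes, and 2 S-phase members, Mcm10 and Ccne2, were lower, against 18.7%. The rescaled medians were 0.98 for G2/M and 0.30 for S phase.

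Separation of individual livers showed the same contrast. Every one of the 6 KO values lay above every WT value for 26 of the 28 G2/M members, Cdca8 and Birc5 being the exceptions. This held for 9 of the 21 S-phase members and for 28.7% of the tested genes. After rescaling it held for 22 G2/M members, 3 S-phase members and 10.8% of the tested genes. Mcm10 alone of the members had all KO values below all WT values, as had 1.88% of the tested genes, or 8.19% after rescaling.

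Of the MCM helicase and its loading factors, 7 of 7 tested genes rose, where 50.1% of all tested genes did, and 6 of the 7 also after rescaling, where 20.9% did. Mcm6, a subunit of the ring, was at 2.25, 1.53 and 1.75 TPM in WT males and 2.37, 2.61 and 2.29 in WT females. In KO it was at 8.41, 5.95 and 11.5 in males and 11.0, 10.7 and 6.70 in females, so the lowest KO liver was above the highest WT liver. Its log2 difference was 1.66 (SE 0.16, limma adjusted p = 2e-06). Cdt1, which loads the ring, was at 1.42, 0.670 and 2.69 TPM in WT males and 1.55, 2.50 and 2.37 in WT females. It was at 5.39, 5.77 and 4.09 in KO males and 7.75, 6.25 and 5.48 in KO females, again without overlap (log2 difference 1.28, SE 0.18).

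Mcm2, Mcm3, Mcm4 and Mcm5 rose as well, with log2 differences of 1.13, 0.80, 0.72 and 1.10, and each passed after rescaling. With rescaling and no filter Mcm3 and Mcm4 did not pass (limma adjusted p = 0.0594 and 0.0530). Mcm7, another ring subunit, was at 6.48, 6.15 and 4.30 TPM in WT males and 5.05, 5.43 and 4.76 in WT females. It was at 7.97, 8.52 and 11.1 in KO males and 13.1, 8.42 and 8.19 in KO females, all above the WT livers. Its difference of 0.72 came to 0.31 after rescaling, with a limma adjusted p of 0.0892. Mcm7 overlaps other annotated genes, Cops6 among them, and whether reads were counted by strand is not given in the sources used here. Cdc6 was close to the floor, at 0 to 0.193 TPM in WT and 0.112 to 0.468 TPM in KO.

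Mcm10, which helps to start the fork, moved against its partners. It was at 30.3, 12.5 and 33.4 TPM in WT males and 15.0, 19.1 and 18.6 in WT females. In KO males it was at 1.85, 5.15 and 2.04, and in KO females at 3.09, 2.34 and 3.12. The highest KO value was below the lowest WT value, and the means were 21.5 ± 8.43 and 2.93 ± 1.21 TPM (SD, n = 6). The log2 difference was -2.48 (SE 0.24, limma adjusted p = 2.65e-06), and -2.87 after rescaling. In WT livers Mcm10 stood above every other member except Pcna by its mean, while the ring subunits it works with were at 1.22 to 5.36 TPM. The gene lies at chr2:4989714-5012791 on the minus strand of GRCm38, and the annotation has no gene overlapping it.

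Of 6 genes listed under helicase activation and elongation, Mcm10 among them, 4 rose and 1 fell, where 50.1% and 4.82% of all tested genes did. After rescaling 2 rose and 1 fell, where 20.9% and 18.7% did. Uhrf1, which carries DNA methylation over to new strands and is only grouped here with the fork genes, rose most. It was at 0.731, 0 and 0.429 TPM in WT males, 0.233, 0.252 and 0.266 in WT females, 1.59, 1.37 and 2.33 in KO males and 4.00, 2.19 and 1.28 in KO females. No KO value overlapped a WT value (log2 difference 1.21, SE 0.19), and the rescaled difference was 1.01. Pole, the catalytic subunit of the leading-strand polymerase, also rose under both scalings (0.47 and 0.29).

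Pcna, the sliding clamp, had the highest mean of all members in WT. It was at 26.9, 19.7 and 23.3 TPM in WT males, 26.6, 33.4 and 33.4 in WT females, 40.8, 31.1 and 31.7 in KO males and 48.1, 37.4 and 34.1 in KO females. These ranges overlapped, the log2 difference was 0.44 on deposited TPM, and it was -0.01 after rescaling. Pcna also has annotated pseudogenes, whose reads the counting could have shared with it. Gins2, a GINS subunit, rose on deposited TPM only (0.70, and 0.35 after rescaling).

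Cdc45, the helicase activator, did not pass the test. It was at 1.90, 0.941 and 1.26 TPM in WT males, 0.947, 0.461 and 0.788 in WT females, 1.46, 1.19 and 2.09 in KO males and 1.51, 0.967 and 0.832 in KO females, with overlap. The log2 difference was 0.20 (SE 0.14, limma adjusted p = 0.243).

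The 3 genes of nucleotide supply, Rrm1, Rrm2 and Tyms, rose on deposited TPM by 0.58, 0.56 and 0.46, where 50.1% of all tested genes rose and their median difference was 0.35. None of the 3 passed after rescaling, where the differences were 0.19, 0.19 and 0.11. Rrm1 and Rrm2 encode ribonucleotide reductase, and Tyms encodes thymidylate synthase.

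Among the G1/S cyclins and E2F factors, 1 of 4 rose, on deposited TPM (50.1% of all tested genes) and after rescaling (20.9%). E2f1, an activator of S-phase genes, went from 1.96 ± 0.726 to 4.25 ± 1.00 TPM (SD, n = 6), with a log2 difference of 0.84 and 0.49 after rescaling. Ccne1, a cyclin E, was at 0.196, 0.560 and 1.91 TPM in WT males, 1.38, 0.892 and 0.305 in WT females, 1.05, 1.29 and 2.51 in KO males and 0.935, 0.535 and 1.69 in KO females. The genotypes overlapped (0.34, limma adjusted p = 0.244). Ccne2, the other cyclin E, was at 0.883, 0.535 and 1.32 TPM in WT males, 1.42, 1.41 and 0.733 in WT females, 0.598, 0.937 and 1.04 in KO males and 0.979, 0.713 and 0.351 in KO females. The genotypes overlapped here too, and its difference was -0.21 (limma adjusted p = 0.272), and -0.42 after rescaling, where it passed at an adjusted p of 0.0282. E2f8, an atypical E2F known as a repressor, had means of 1.74 ± 0.994 and 1.70 ± 0.443 TPM (0.05, limma adjusted p = 0.818).

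**Figure D2:**
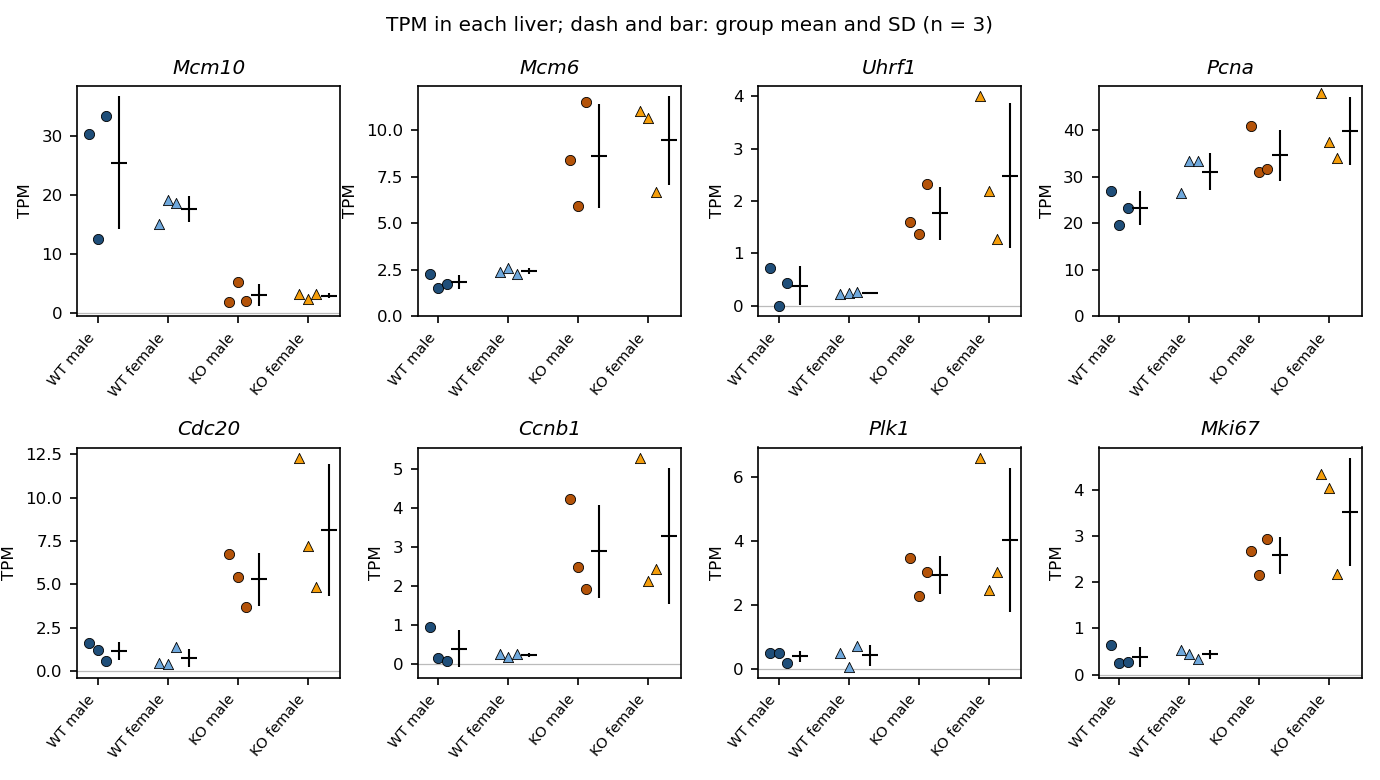
TPM of 4 S-phase members (top) and 4 G2/M members (bottom) in each liver, by group on the horizontal axis; the dash and bar are the group mean and SD (n = 3) and every vertical axis is linear. The KO points lie below all WT points for Mcm10, overlap them for Pcna, and lie above them for the other genes drawn.

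Within the G2/M class, all 5 tested genes of the cyclin and CDK1 group rose under both scalings, where 50.1% of all tested genes rose on deposited TPM and 20.9% after rescaling. Ccnb1, the cyclin B of mitotic entry, was at 0.952, 0.164 and 0.0923 TPM in WT males and 0.273, 0.190 and 0.257 in WT females. It was at 4.23, 2.50 and 1.94 in KO males and 5.28, 2.13 and 2.45 in KO females. The 6 KO livers were all above the highest WT liver, a male (log2 difference 1.60, SE 0.21). Ccnb2, the second cyclin B, was at 1.91, 0.213 and 1.55 TPM in WT males, 0.443, 0.370 and 1.25 in WT females, 6.67, 4.62 and 2.70 in KO males and 7.22, 5.01 and 5.38 in KO females (1.72, SE 0.25). Both cyclins have an annotated pseudogene. Cdk1 rose by 1.12, Ccna2, a cyclin A, by 1.24, and Foxm1, a transcription factor of this programme, by 1.01.

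Cdc20, the activator of the anaphase-promoting complex, rose by 1.94 (SE 0.24, limma adjusted p = 2.01e-05; rescaled 1.62). This was the largest rise with the pseudocount of 1, whereas with 0.1 Ccnb1 (3.06), Plk1 (2.96) and Aurkb (2.83) were above Cdc20 (2.74). It was at 1.63, 1.23 and 0.598 TPM in WT males and 0.487, 0.421 and 1.39 in WT females. It was at 6.76, 5.44 and 3.71 in KO males and 12.3, 7.23 and 4.86 in KO females, with no overlap. Cdc20 (chr4:118432901-118437352) overlaps Elovl1 on the opposite strand. Ube2c, the ubiquitin-conjugating enzyme that works with the same complex, rose by 1.46.

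The mitotic kinases rose, 4 of 4 tested under both scalings (50.1% and 20.9% of all tested genes). Plk1, a Polo kinase, was at 0.498, 0.482 and 0.174 TPM in WT males, 0.485, 0.0429 and 0.711 in WT females, 3.48, 2.29 and 3.03 in KO males and 6.61, 2.45 and 3.02 in KO females. The groups did not overlap (1.64, SE 0.20). Aurka, the Aurora kinase of the spindle poles, had the highest WT mean of the class. It was at 1.69, 1.30 and 1.34 TPM in WT males, 1.60, 0.924 and 2.05 in WT females, 4.44, 4.80 and 5.80 in KO males and 6.73, 4.22 and 3.62 in KO females, without overlap (1.25). Aurkb, the Aurora kinase of the chromosomal passenger complex, rose by 1.28 and Bub1b, of the spindle checkpoint, by 0.82.

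The checkpoint kinases Bub1 and Ttk and the kinetochore proteins Cenpe and Cenpf were too low for the filter. Bub1 was at 0.0567 to 0.160 TPM in WT and 0.404 to 1.07 TPM in KO. Ttk was at 0 to 0.151 TPM in WT and 0.284 to 0.900 TPM in KO. Cenpe was at 0 to 0.221 and 0.616 to 0.979 TPM, and Cenpf at 0.0249 to 0.165 and 0.446 to 1.00 TPM. Each of the 4 had all KO livers above all WT livers, and with no filter (17332 genes) 28 of 28 G2/M members passed, against 38.0% of genes. With rescaling and no filter 27 G2/M and 7 S-phase members were higher, against 16.4% of genes, and 2 S-phase members lower, against 12.9%.

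Chromosome structure and the proliferation marker rose as well. Top2a, which untangles DNA strands, was at 1.27, 0.453 and 0.396 TPM in WT males, 0.631, 0.542 and 0.803 in WT females, 4.07, 3.28 and 5.12 in KO males and 5.28, 3.50 and 3.05 in KO females (1.58, SE 0.16). Mki67, which encodes the Ki-67 protein of cycling cells, was at 0.643, 0.243 and 0.266 TPM in WT males and 0.530, 0.441 and 0.346 in WT females. It was at 2.69, 2.15 and 2.93 in KO males and 4.34, 4.05 and 2.19 in KO females (1.50, SE 0.15). In both genes the KO livers were all above the WT livers.

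The 7 spindle motors and microtubule-binding genes all rose under both scalings (50.1% and 20.9% of all tested genes), from 0.51 for Kif23 to 1.36 for Prc1, as did Anln, of the cytokinetic ring (0.71). Birc5 and Cdca8, of the passenger complex, rose by 0.77 and 0.95, although 1 WT female reached 1.38 TPM for Birc5 and 1.72 TPM for Cdca8, above the lowest KO livers at 0.991 and 1.36 TPM. The low WT levels rest on few reads: the median G2/M member had 102 reads summed over the 6 WT libraries and 455.5 over the 6 KO libraries. The pseudocount of 1 understates the change of such genes.

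**Figure D3:**
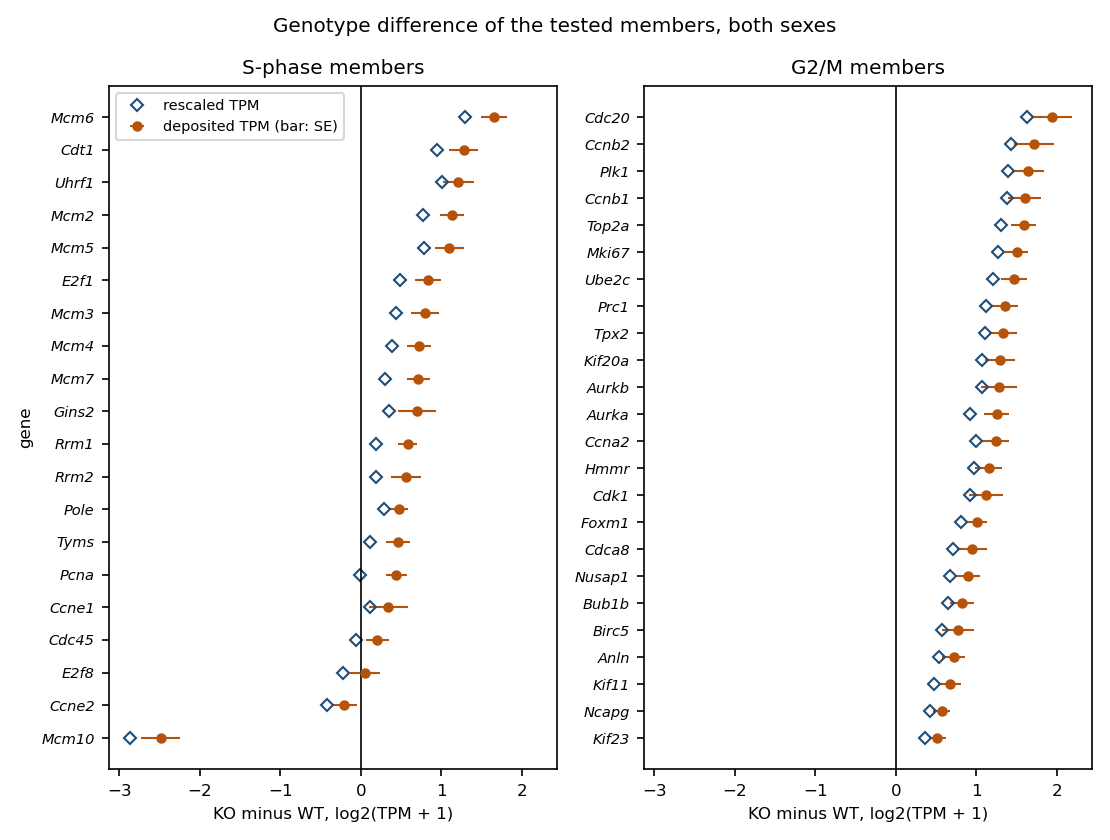
KO minus WT difference of log2(TPM + 1) (horizontal axis) for each tested member, S-phase genes left and G2/M genes right; filled points are deposited TPM with their SE and open diamonds are rescaled TPM. Every G2/M point lies above 0 under both scalings, whereas S-phase points run from -2.48 for Mcm10 to 1.66 for Mcm6 on deposited TPM.

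Summed over the class, G2/M transcripts were at 7.98 to 18.8 TPM in WT and 51.0 to 103.7 TPM in KO, with means of 12.4 ± 4.49 and 66.0 ± 19.7 TPM (SD, n = 6). S-phase transcripts were at 63.6 to 99.4 TPM in WT and 95.7 to 151 TPM in KO, and these ranges overlapped. Without Mcm10 the S-phase sum was 65.0 ± 8.51 TPM in WT and 114 ± 19.9 TPM in KO, and the ranges no longer met. After rescaling the sums without Mcm10 were 71.4 to 85.3 TPM in WT and 79.5 to 117 TPM in KO, which overlapped. The rescaled sum of all S-phase members was 88.1 to 123 TPM in WT and 84.0 to 119 TPM in KO, and the KO minus WT difference of the means was -1.65 TPM. The rescaled G2/M sum, 8.51 to 23.1 and 42.0 to 81.9 TPM, still did not overlap. In each liver the mean log2(TPM + 1) of the G2/M class minus that of the S-phase class was -1.49 to -1.01 in WT and -0.90 to -0.46 in KO. The groups differed by 0.58, against a spread within groups of 0.16 (SD), and by 0.43 without Mcm10. The size rests on the pseudocount, since with 0.1 in place of 1 the difference was 1.40. The KO female with animal number 74 was the highest KO liver for 24 of 28 G2/M members and for 9 of 21 S-phase members, as KO male replicate 3 was for another 9 of the 21. Without that mouse and the WT female numbered 75, the other mouse from a lower number range, 24 G2/M and 13 S-phase members rose. The share of all genes that rose in that fit is not given here.

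**Figure D4:**
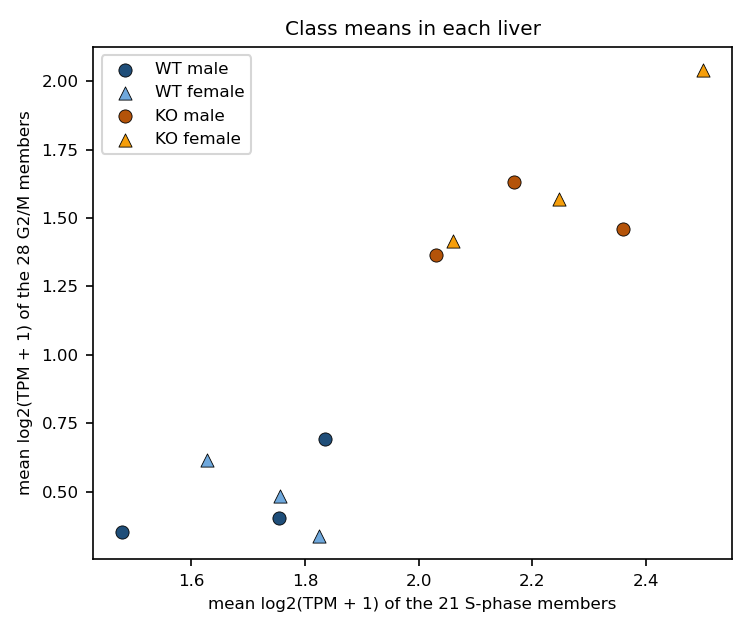
Mean log2(TPM + 1) of the 21 S-phase members (horizontal axis) against that of the 28 G2/M members (vertical axis), 1 point per liver, with circles for males and triangles for females. The 6 KO livers lie above and to the right of the 6 WT livers, and 1 KO female lies farthest out.

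The pattern was present in each sex. In males 24 of 24 tested G2/M members rose, where 43.3% of all tested genes did, and 13 S-phase members rose. After rescaling these counts were 14 and 3, against 13.9%. In females 23 G2/M members, all but Birc5, and 12 S-phase members rose, where 29.1% of all tested genes did. After rescaling they were 21 and 6, against 15.2%. Without KO female replicate 1, 7 S-phase members rose in females. In males 8 rose without WT male replicate 2, and 8 without KO male replicate 3. The shares of all genes that rose with 1 mouse left out are not given here. Mcm10 fell in males, where 2.81% of tested genes did, and in females, where 4.68% did. No member passed the test of the difference between the sexes' responses (limma, 0 of 44, where 0.912% of all tested genes passed). At an unadjusted p under 0.05 the count was 1, E2f8.

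The 3 members with the smallest p in that test were E2f8, E2f1 and Cdc20. E2f8 was at 1.41, 0.819 and 0.493 TPM in WT males and 2.60, 2.11 and 2.98 in WT females, without overlap. It was at 1.21, 1.35 and 2.31 in KO males and 1.75, 2.14 and 1.47 in KO females, where the sexes overlapped. The male response minus the female response was 0.82 (limma adjusted p = 0.430). E2f1 went the other way in WT, at 3.04, 2.45 and 2.11 TPM in males and 1.26, 1.79 and 1.13 in females, and was at 4.05, 3.02 and 5.89 in KO males and 4.66, 4.37 and 3.47 in KO females (-0.55, limma adjusted p = 0.618). For Cdc20, whose values are given above, the difference was -0.78.

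Between WT males and WT females 1 member passed, E2f8 (male minus female -0.92, limma adjusted p = 0.0267), where 5.74% of all tested genes did. It did not pass without WT male replicate 2 or without any single WT female. After rescaling E2f1 passed too (0.75, limma adjusted p = 0.0425), where 4.37% of tested genes passed. Between KO males and KO females none of the 44 passed in limma (0 also at an unadjusted p under 0.05), where 0.0814% of tested genes did.

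Further genes of the same processes were read from wider lists, against the 50.1% of all tested genes that rose on deposited TPM and the 20.9% after rescaling. Of 44 other replication genes, 22 of 40 tested rose and 1 fell, where 50.1% and 4.82% of all tested genes did, and the median difference was 0.40. After rescaling 6 of the 40 rose, where 20.9% of all genes did, and 4 fell, where 18.7% did. Lig1, the ligase that joins new DNA pieces, rose by 1.36 and Rfc2, of the clamp loader, by 1.13. Tk1, thymidine kinase, fell by 1.14, from 32.5 ± 17.9 to 12.8 ± 6.31 TPM (SD, n = 6), and it overlaps Afmid on the opposite strand.

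Of 54 other mitosis genes, 27 of 35 tested rose, with a median of 0.89, where 50.1% of all tested genes rose. After rescaling 23 rose, against 20.9%, and 1, Pttg1 (securin), was lower at -0.92. Nek2, a centrosome kinase, rose by 1.70, Cenpm, a centromere protein, by 1.62, and Pkmyt1, an inhibitory kinase of CDK1, by 1.52.

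Of 18 genes of G1 control, 9 of 17 tested rose, near the 50.1% of all tested genes. After rescaling 4 rose, against 20.9%, and 3 fell, against 18.7%. Cdc25a, a phosphatase that activates CDKs, went from 1.19 ± 0.364 to 5.66 ± 1.29 TPM (1.60), and Rbl1, which encodes p107, rose by 0.94. Ccnd1, cyclin D1, was at 12.6, 14.4 and 14.8 TPM in WT males and 87.4, 87.9 and 27.8 in WT females. In KO it was at 51.7 to 104 TPM in males and 58.6 to 104 TPM in females. In males the KO livers were all above the WT livers, whereas in females the genotypes overlapped. No G1 control gene passed the test of the difference between the sexes' responses (limma, 0 of 17, where 0.912% of all tested genes passed). The Ccnd1 difference over both sexes was 1.24, and 0.79 after rescaling, where it did not pass (limma adjusted p = 0.0901).

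Of 7 CDK inhibitors, 4 of 5 tested rose on deposited TPM, where 50.1% of all tested genes did, and 2 after rescaling, where 20.9% did. Cdkn1a, which encodes p21 and holds back CDKs, was at 26.9 and 27.2 TPM in WT male replicates 1 and 2 and at 0.763 to 1.36 TPM in the other 4 WT livers. It was at 18.7 to 93.8 TPM in KO (3.13, SE 0.70), so the KO range overlapped those WT males. Cdkn2c, which encodes p18, rose by 1.33, and Cdkn2d, which encodes p19, by 0.55.

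Markers of some other liver cells moved with genotype. The summed level of 6 macrophage markers was 60.9 to 195.8 TPM in WT and 301 to 614 TPM in KO, and 6 of 6 rose under both scalings (50.1% and 20.9% of all tested genes). KO female replicate 1, which led the G2/M genes, had the highest sum of the macrophage markers and also of the stellate, neutrophil, B and plasma cell, megakaryocyte, T and NK cell and endothelial markers. The sum of 7 stellate and myofibroblast markers was 56.9 to 156 TPM in WT and 116 to 290 TPM in KO, and 4 of 7 rose, near the 50.1% of all tested genes. After rescaling 2 of the 7 rose and 1 fell, where 20.9% and 18.7% of all tested genes did. The sum of 4 granulocyte precursor markers was 0.184 to 3.24 TPM in WT and 4.92 to 74.4 TPM in KO, without overlap. The sum was nearly all Prtn3, whereas Elane, Mpo and Ctsg were at most 0.884, 0.210 and 0.094 TPM in any liver. The sums of the neutrophil (0.218 to 17.6 and 11.4 to 44.4 TPM), B and plasma cell (2.62 to 13.9 and 10.5 to 22.0 TPM) and megakaryocyte markers (1.88 to 5.09 and 4.31 to 14.0 TPM) overlapped between WT and KO, with higher medians in KO. Of those tested, 3 of 3 neutrophil, 2 of 4 B and plasma cell and 1 of 3 megakaryocyte markers rose (50.1% of all tested genes). After rescaling 1 of each rose (20.9%). The megakaryocyte marker that rose did so by 1.65, while the median of the 3 was -0.02. Of the cholangiocyte markers, Sox9 went from 3.20 ± 1.84 to 11.0 ± 3.68 TPM (SD, n = 6) without overlap and rose by 1.57 (1.17 after rescaling), while Epcam fell by 0.35. Krt19 did not pass (-0.12, limma adjusted p = 0.707), and Krt7 and Cftr were under the filter. The sum of 5 hepatocyte markers was 86466 to 111866 TPM in WT and 63257 to 86038 TPM in KO. The 5 did not move together: 2 fell and 1 rose, where 4.82% and 50.1% of all tested genes did. After rescaling 3 fell and 0 rose, where 18.7% and 20.9% did. Of 6 T and NK cell markers, none of the 4 tested passed in limma (0 also at an unadjusted p under 0.05), and Trac was at 0 in every liver. The sum of 8 erythroid precursor markers overlapped between genotypes, at 570 to 1438 TPM in WT and 396 to 2337 TPM in KO, and Gata1 was at 0 in every liver. The part these cells have in the levels of the cell-cycle genes was not tested.

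The authors' deposited table, which compares the genotypes by their own method, listed 26 of 28 G2/M members as higher at an FDR under 0.05 and none as lower. It listed 6 S-phase members as higher and 1 as lower, where 14.9% of 17332 genes were higher and 9.27% lower. The deposited FDR is rounded to 2 decimals. Pole, at 0.05 in the authors' deposited table with a log2 fold change of 0.82, was not counted. As listed in the authors' deposited table, log2 fold changes had a median of 2.16 for G2/M members, 0.52 for S-phase members and 0.04 for all genes. Mcm10 was at -3.37 and Mcm6 at 1.70 on the log2 scale of the authors' deposited table.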

How the data were processed

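Whole-liver RNA was measured in 12 mice. Per the labels' protocols, total RNA of frozen liver was sequenced with Illumina libraries, and the deposited values are TPM per gene on GRCm38, as the submitters' processing notes name the build. The notes also name edgeR, without its role. The aligner and the counting are not given in the sources used here. The authors' fold changes, log2 fold changes and FDR p-values were deposited in other columns of the same table and are used only where named.

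From deposited TPM, log2(TPM + 1) was fitted with limma 3.58.1 in R 4.3.3 (trended empirical Bayes), leaving out genes whose mean TPM was under 0.5, with Benjamini-Hochberg adjustment and a threshold of 0.05. Both sexes together were fitted with sex as a term. The response of each sex, the difference between them and the sex differences came from 1 model of the 4 group means. The fits were tested on simulated data. For rescaling, TPM was divided by median-of-ratios size factors, keeping the same genes. Reads were recovered from steps in TPM, taking values within 0.03 of a whole number (0.05 for genes of high counts). Groups come from the labels, and replicates are separate mice by their animal numbers.

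Members and lists were chosen with earlier results of these data known. Values in every sample are given for the members with the largest differences (4 S-phase, 6 G2/M), the 3 highest in WT per class, those tested and not past the threshold, and the 3 with the smallest interaction p. Of each wider list the 3 largest differences and those against the list's direction are named. Alternatives were another pseudocount (0.1), other filters (none, or a mean of at least 1 TPM), rescaling, a size threshold, a term for low animal numbers, and leaving out each mouse. 1 cholangiocyte marker is not reported here, and neither is the sum that holds it.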

Additional observations from a re-analysis of the deposited data

Results flagged for a closer look

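Livers standing apart were sought on the log2(TPM + 1) scale, in 98 groups of 6 livers (each member in WT and in KO). In 3 groups a liver's gap to its nearest neighbour took more of the group's range than Dixon's limit for 6 samples allows. Chance gives about 1 in 20 such groups. The values below are in TPM, on which the gaps were not tested, so the count of 3 holds for log2(TPM + 1) only. Ccnb1 was at 0.952 TPM in WT male replicate 1, where the other WT livers were at 0.0923 to 0.273 TPM. Plk1 was at 6.61 TPM in KO female replicate 1, where the other KO livers were at 2.29 to 3.48 TPM. Cenpe was at 0.979 TPM in the same KO female, where the others were at 0.616 to 0.711 TPM.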

How the results depend on the processing

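Over both sexes, 24 G2/M members were higher with rescaling, a pseudocount of 0.1, a term for low animal numbers or any 1 mouse left out. Of all 12278 tested genes 2568 were higher with rescaling and 6139 with a pseudocount of 0.1. With a log2 difference of at least 1 the G2/M members numbered 16, where 1561 of all tested genes were that much higher. With a filter at 1 TPM, which tests fewer genes, the G2/M members numbered 17. S-phase members higher numbered 13 to 15 with 1 mouse left out. S-phase members higher numbered 9 with rescaling, 7 with rescaling and no filter, 9 with rescaling and a pseudocount of 0.1, and 5 with a log2 difference of at least 1. With rescaling and no filter 2851 of 17332 genes were higher. Members lower numbered 2 under the 3 rescaled settings. Among all genes 2293 of 12278 were lower with rescaling, and 2234 of 17332 with no filter added. In males S-phase members higher numbered 3, 2 and 2 under the rescaled settings. They numbered 3 with the size threshold and 8 to 13 with 1 mouse left out. G2/M members higher in males numbered 14 with rescaling, 15 with rescaling and pseudocount 0.1, 14 with the size threshold and 17 to 24 with 1 mouse left out. Among all genes in males, 1703 of 12278 were higher with rescaling and 1755 with the size threshold. With rescaling and no filter 1767 of 17332 were higher in males. In females S-phase members higher numbered 6, 7 and 6 under the rescaled settings, 6 with the size threshold, 6 without the 2 mice of low number and 7 to 12 with 1 mouse left out. Among all genes in females, 1872 of 12278 were higher with rescaling and 1486 with the size threshold. With rescaling and no filter 1982 of 17332 were higher in females. The sex difference in WT called 2 members with rescaling, 0 with rescaling and no filter, 0 with a term for low animal numbers, 0 without those 2 mice, 0 with the size threshold, and 0 to 1 with 1 mouse left out. With rescaling it called 537 of all 12278 genes. Counts over all genes for the other settings, among them those with mice left out, are not given here. The difference between the classes, 0.58, was 0.40 by medians and 1.40 with a pseudocount of 0.1.

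The KO minus WT difference of the summed TPM went from 31.0 to -1.65 for S phase with rescaling, and from 49.5 to 21.2 without Mcm10, alternatives chosen after seeing the data. Differences near 0 changed sign. Pcna was at -0.0061 with rescaling, with or without the filter, and -0.0066 with rescaling and pseudocount 0.1. Cdc45 was at -0.054 and -0.053 under the same settings. E2f8 was at -0.22 with rescaling, -0.22 with no filter added and -0.27 with pseudocount 0.1, and ranged from -0.071 to 0.14 with 1 mouse left out (-0.00037 without WT male replicate 2, -0.06 without WT male replicate 3, -0.071 without KO male replicate 3). The cause was not tested. Low counts limit the G2/M levels in WT. No paired analysis was possible because replicate numbers were given in accession order and pair no mice.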

Other observations

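Wee1, a kinase that holds CDK1 inactive, was chosen after its values were seen. It was at 2.08 and 1.10 TPM in WT male replicates 1 and 2, the livers with the high WT values of Cdkn1a, and at 3.76 to 13.4 TPM in the other 4 WT livers. In KO livers it was at 4.02 to 6.91 TPM, and the genotype difference was 0.05 (limma adjusted p = 0.928).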
